A study of Mus musculus with 8 samples.

Results

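Transcripts of 10 genes were examined in sorted 4T1 cells, a mouse mammary carcinoma line. All but Acsl4 serve cystine import, glutathione synthesis or glutathione use, and Acsl4 acts on the lipids that can be peroxidised. The genes were Slc7a11, Slc3a2, Gclc, Gclm, Gss, Gsr, Gpx1, Gpx2, Gpx4 and Acsl4, matched by symbol to the Ensembl identifier, and all 10 were among the 16341 genes counted. They were chosen by their place in or beside 1 pathway together with the log2 fold changes and calls of this same contrast. Those were already known, so their differences between the fractions are given as a description and without a p-value. Slc7a11 also stands in gene lists that the study drew from these libraries. RNA was sequenced from 4T1-Sca1+ and 4T1-Sca1- cells, 4 libraries each, and SCA1, the surface protein used for sorting, is encoded by Ly6a. The paper and the source label place the sort in the parental line, although the labelled protocol mentions stained tumor and the sort label adds a CD45-negative gate. No treatment or allele sets the fractions apart in the labels, and whether replicates were separate sorts is not said, so the spread between libraries may be technical.

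Cystine enters the cell through system xc-, an exchanger made of the transporter xCT (Slc7a11) and the heavy chain 4F2hc (Slc3a2), and is reduced to cysteine inside. Cysteine is joined to glutamate by glutamate-cysteine ligase, whose catalytic and modifier subunits are Gclc and Gclm, and glutathione synthetase (Gss) adds glycine. Glutathione then serves the peroxidases, is returned to its reduced form by glutathione reductase (Gsr), and lets GPX4 clear lipid peroxides in membranes. ACSL4 loads polyunsaturated fatty acids into the lipids that can be peroxidised, and cell death by lipid peroxidation is called ferroptosis.

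Ly6a read 145 to 193 normalized counts in 4T1-Sca1+ cells but only 0 to 4.11 in 4T1-Sca1- cells, where a normalized count is the read count divided by the library's size factor. Totals ran from 13561804 to 16968215 counts per library. Of 8 epithelial markers 7 were tested. Krt8 (log2 fold change 0.31) and Krt18 (0.38) were higher. Cdh1 (-0.69), Cldn4 (-0.62) and Krt14 (-0.23) were lower, and Epcam (-0.03) and Krt19 (0.01) were not called. The list summed to 41785 to 45630 normalized counts in 4T1-Sca1+ and 40652 to 43524 in 4T1-Sca1- cells. Most of this sum was Krt18 (mean 16514 against 12802) and Krt8 (13673 against 11093). Leukocyte markers were low but unequal. Of 18, 12 were counted, and the 4 that passed the filter on low counts (Csf1r, Cd68, Cd74 and S100a8) were all higher in 4T1-Sca1+. The list summed to 414 to 479 against 231 to 274, mostly from Cd68 (mean 236 against 152) and Cd74 (125 against 65.5). Among those too low to test, Ptprc, which encodes CD45, had 10 reads in all in 4T1-Sca1+ and 2 in 4T1-Sca1- cells. Cd79a had 24 against 18, Fcer1g 10 against 2, and Cd3e and S100a9 each 3 against 1. Itgam had 10 against 11, Itgax 11 against 12 and Lyz2 0 against 1. Of the 10 fibroblast markers 8 were counted, 4 were tested and 3 were higher in 4T1-Sca1+ (sums 3101 to 3320 against 2282 to 2637). Most of this sum was Sparc (mean 2543 against 2012), and most of the rest was Pdgfra (560 against 364). Among those too low to test Dcn had 49 reads against 4, Pdgfrb 27 against 1, Col1a2 19 against 18 and Fap 4 against 11. Of the 8 endothelial markers 7 were counted, 2 were tested and 1 (Tie1) was lower (sums 2365 to 2441 against 2308 to 2574). Nearly all of this sum was Eng (mean 2362 against 2368), which was not called. Among those too low to test Pecam1 had 21 reads against 4, Vwf 5 against 3, Esam 24 against 32, Cdh5 3 against 7 and Tek 0 against 1. The part of these cells in the results was not tested, and in bulk RNA fewer cells of a type and less RNA per cell cannot be told apart. 4T1-Sca1+ replicate 3 stood apart: its counts differed from those of the other 4T1-Sca1+ libraries by a chi-square per degree of freedom of 7.02 to 10.1, against 2.19 to 4.00 among the others, and it was the lowest 4T1-Sca1+ library for 6 of the 10 genes. Values without 4T1-Sca1+ replicate 3 are given where they matter. Among the 4T1-Sca1- libraries, replicate 2 differed from the others by 3.40 to 5.68 on the same measure, against 1.92 to 3.09 among the rest.

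Across the fractions the 10 genes did not move as a block. Of the 9 that passed the filter on low counts, 5 were called higher in 4T1-Sca1+ (Slc7a11, Acsl4, Gclm, Gclc and Gsr), 1 was called lower (Gpx4), and Slc3a2, Gss and Gpx1 were not called. Gpx2 did not pass the filter. A call means an adjusted p under 0.05 by edgeR's quasi-likelihood test over all 11717 genes tested, and it was reached by 61.5% of them, 31.3% higher and 30.2% lower. The 4 libraries of 1 fraction lay wholly above or below those of the other for 6 of the 9 genes, 5 above and 1 below, as for 54.7% of all genes tested (26.8% above and 27.9% below). The median log2 fold change was 0.33 over the 9 genes and 0.0074 over all genes tested. With 4T1-Sca1+ replicate 3 left out, the same 6 genes kept their calls. Gpx2 then passed the filter, but through its 4T1-Sca1+ reads alone, so its call is not counted. The log2 fold changes without this library were 2.55 for Slc7a11, 0.75 for Acsl4, 0.61 for Gclm, 0.50 for Gclc, 0.33 for Gsr and -0.36 for Gpx4.

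**Figure D1:**
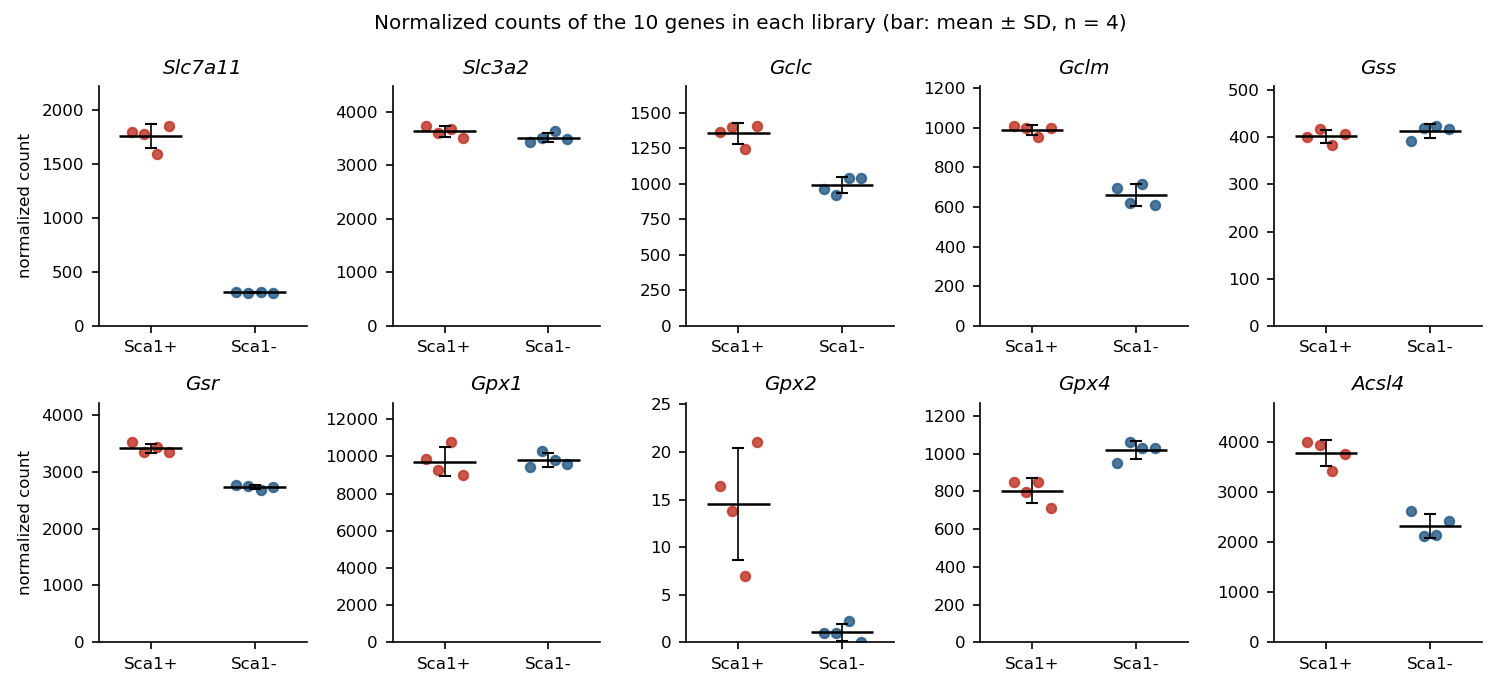
Normalized counts (vertical axes, each from 0) of the 10 genes in the 4 Sca1+ libraries (red) and the 4 Sca1- libraries (blue); points are libraries and bars are mean ± SD. The fractions are separate for Slc7a11, Gclc, Gclm, Gsr, Gpx2, Gpx4 and Acsl4, with Gpx4 alone among these lower in Sca1+, and overlap for Slc3a2, Gss and Gpx1.

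Slc7a11 (ENSMUSG00000027737, GRCm38 chromosome 3, 49892526 to 50443614, minus strand) encodes the light chain that carries out the exchange of cystine for glutamate. Its normalized counts were 1799.6, 1775, 1596 and 1851 in 4T1-Sca1+ replicates 1 to 4 and 312, 308, 315 and 307 in 4T1-Sca1- replicates 1 to 4. Every 4T1-Sca1+ library lay far above every 4T1-Sca1- library, and the 4T1-Sca1- libraries were nearly level with each other. The means were 1755 ± 111 and 311 ± 3.73 (SD, n = 4), a log2 fold change of 2.51 ± 0.06 (SE) or 5.70-fold. It was the only member called with a log2 fold change of at least 1, which 5.22% of genes tested reached, and no member was called at -1 or below (0.879%). The range over the alternative fits was 2.48 to 2.63.

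The region just upstream of Slc7a11 is shown because this gene differed most among those tested here and because, alone among the 8 of 10 genes with a RefSeq promoter entry, it held matches to the composite element bound by the stress factor ATF4. The 250 bases before the start (RefSeq, GRCm38.p6, chr3:50443614-50443863, minus strand) are given 5′ to 3′ with the matches to TGATGNAAN, searched on both strands, in capitals.
Slc7a11: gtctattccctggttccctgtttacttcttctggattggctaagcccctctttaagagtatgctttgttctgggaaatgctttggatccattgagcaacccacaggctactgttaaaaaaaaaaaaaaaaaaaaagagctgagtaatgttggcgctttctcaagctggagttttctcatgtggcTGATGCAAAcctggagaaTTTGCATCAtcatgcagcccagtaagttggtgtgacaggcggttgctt
The matches, TGATGCAAA and TTTGCATCA, begin 66 and 48 bases before the start and face each other in opposite orientation. In windows of 300 bases, from 250 before to 50 after the start, 3.95% of 32851 promoters held at least 1 such match and 0.07% held 2 or more. A match is a string of letters and shows no binding. Atf4 itself had 5386 ± 141 normalized counts in 4T1-Sca1+ and 5901 ± 79.9 in 4T1-Sca1- cells, a call that was lost under some alternatives given below.

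Slc3a2 (ENSMUSG00000010095, chromosome 19, 8706882 to 8723369, minus strand) encodes the heavy chain 4F2hc, which brings several light chains to the plasma membrane. Its normalized counts were 3730.0, 3606, 3675 and 3499 (4T1-Sca1+) against 3435, 3498, 3633 and 3480.3 (4T1-Sca1-). The fractions overlapped, with means of 3627 ± 99.5 and 3512 ± 85.3 and a log2 fold change of 0.06 ± 0.04 (SE), which was not called. Scaling by library totals alone gave 0.10 and a call. In levels per exon length, Slc7a11 transcripts were 0.123 ± 0.00989 of Slc3a2 transcripts in 4T1-Sca1+ and 0.0224 ± 0.000446 in 4T1-Sca1- cells (n = 4), with no overlap. Against Slc7a5, another light chain of 4F2hc, the ratio was 0.140 ± 0.0107 and 0.0238 ± 0.00104.

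Both subunits of glutamate-cysteine ligase, the rate-limiting enzyme of glutathione synthesis, were higher in 4T1-Sca1+ cells. Gclc (ENSMUSG00000032350, chromosome 9, 77754535 to 77794485, plus strand), the catalytic subunit, had normalized counts of 1366, 1402, 1245 and 1406 against 966, 922, 1042 and 1039. The lowest 4T1-Sca1+ library, replicate 3, was still above the highest 4T1-Sca1- library. Means were 1355 ± 75.6 and 992 ± 58.4 and the log2 fold change was 0.46 ± 0.06 (1.38-fold). Gclm (ENSMUSG00000028124, chromosome 3, 122245557 to 122270732, plus strand), the modifier subunit that raises the catalytic subunit's activity, had 1009, 999.9, 953 and 997 against 694, 618, 718 and 612. The 4T1-Sca1- libraries split into a higher pair (replicates 1 and 3) and a lower pair (replicates 2 and 4), all below 4T1-Sca1+. Means were 989.6 ± 25.2 and 661 ± 53.6, with a log2 fold change of 0.60 ± 0.06 (1.51-fold). Gclm exons overlap those of Gm17494 and Gm6061, which were not in the count table. Per exon length, Gclm transcripts were 0.438 ± 0.0156 of Gclc transcripts in 4T1-Sca1+ and 0.399 ± 0.0332 in 4T1-Sca1- cells, and these ranges overlapped.

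The Gclm upstream region is shown because it held the only match among these promoters to the core of the antioxidant response element, the site of the NRF2 factor. The letters searched were TGACNNNGC on both strands, which 12.39% of all promoter windows held, and the 250 bases before the start (RefSeq, GRCm38.p6, chr3:122245307-122245556, plus strand) carry the match in capitals, 134 bases before the start and on the opposite strand.
Gclm: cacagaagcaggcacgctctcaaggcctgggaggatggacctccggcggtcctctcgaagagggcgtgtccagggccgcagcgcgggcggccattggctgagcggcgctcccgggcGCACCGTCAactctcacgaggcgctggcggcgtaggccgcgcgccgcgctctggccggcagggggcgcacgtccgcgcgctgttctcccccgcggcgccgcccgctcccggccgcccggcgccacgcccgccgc
The window of Slc7a11 held no match to this core, the Gclm window held none to the ATF4 element, and Slc3a2, Gss, Gpx1, Gpx2, Gpx4 (4 promoter entries) and Acsl4 held neither. Gclc and Gsr had no entry in the promoter table. No match says only that these letters are not in this window.

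Gss (ENSMUSG00000027610, chromosome 2, 155563181 to 155592810, minus strand), which completes glutathione, had normalized counts of 400.3, 417, 384 and 408 in 4T1-Sca1+ and 393, 419.9, 424 and 418 in 4T1-Sca1- libraries. The fractions overlapped throughout (402 ± 14.0 and 414 ± 14.3), and the log2 fold change of -0.03 ± 0.06 was not called. Gss shares 395 exon bases with Acss2 on the opposite strand. It also shares 385 with Gssos2 and 322 with Gssos1, antisense genes that were not in the count table. The use of strand in counting is not stated, so reads there may not be told apart. Acss2 read 391 to 448 normalized counts in 4T1-Sca1+ cells, against 254 to 299.8 in the other fraction. The ratio of Gss to Gclc transcripts per length was 0.189 ± 0.00517 in 4T1-Sca1+ and 0.266 ± 0.0161 in 4T1-Sca1- cells, with no overlap. With the longest transcript as length it was 0.312 ± 0.00853 and 0.439 ± 0.0265.

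Gsr (ENSMUSG00000031584, chromosome 8, 33652523 to 33698163, plus strand), which regenerates reduced glutathione with NADPH, had 3511, 3342, 3432 and 3338 normalized counts against 2759, 2754, 2672 and 2726. The libraries within each fraction were close together and the fractions did not overlap. Means were 3406 ± 82.4 and 2728 ± 40.0, with a log2 fold change of 0.33 ± 0.04 (1.26-fold).

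**Figure D2:**
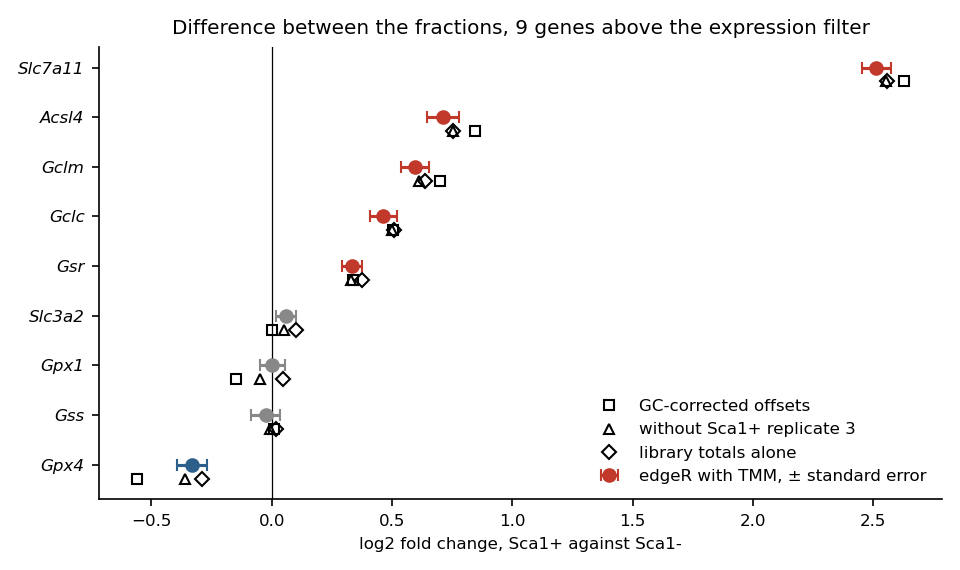
Log2 fold change of Sca1+ against Sca1- (horizontal axis) for the 9 genes that passed the filter on low counts, with standard errors (red called higher, blue called lower, grey not called) and open symbols for 3 other fits. Slc7a11 at 2.51 stands apart from the other genes called higher, at 0.33 to 0.71, and the GC-corrected fit moves Gpx4 from -0.33 to -0.56 and Gpx1 to -0.15.

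Among the peroxidase members only Gpx4 was called, Gpx1 was not called and Gpx2 was not tested. Gpx1 (ENSMUSG00000063856, chromosome 9, 108338903 to 108340343, plus strand), the abundant cytosolic enzyme that reduces hydrogen peroxide, had normalized counts of 9852, 9276, 10745 and 9005 in 4T1-Sca1+ and 9423, 10292, 9811 and 9606 in 4T1-Sca1- libraries. The highest and the lowest of the 8 libraries were both 4T1-Sca1+, and the log2 fold change of 0.0032 ± 0.05 was not called. Its sign changed with the fit, and GC-corrected offsets called it lower at -0.15.

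Gpx4 (ENSMUSG00000075706, chromosome 10, 80047166 to 80056439, plus strand), the selenoenzyme that reduces phospholipid hydroperoxides, was the 1 gene of the 10 called lower. It had 852, 798, 849.8 and 712 normalized counts in 4T1-Sca1+ and 952, 1059, 1032 and 1032 in 4T1-Sca1- libraries. Every 4T1-Sca1+ library lay below every 4T1-Sca1- library, with replicate 4 lowest. Means were 803 ± 65.4 and 1019 ± 46.1 and the log2 fold change was -0.33 ± 0.06 (0.795-fold). Correcting for GC content, which was 60.2% in its longest transcript and the highest of the 10 genes, moved it to -0.56, while the other fits gave -0.28 at the nearest to 0. Counts per gene do not separate the Gpx4 isoforms.

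Gpx2 (ENSMUSG00000042808, chromosome 12, 76792333 to 76795554, minus strand), a peroxidase known from the gut epithelium, was near the limit of detection. It had 18, 14, 7 and 24 reads in 4T1-Sca1+ replicates 1 to 4 and 1, 1, 2 and 0 in 4T1-Sca1- replicates 1 to 4, so the fractions were separate but rested on 63 and 4 reads. The ratio of reads, corrected for library size, was 14.1 with an exact 95% interval of 5.23 to 53.2 that covers counting error only. Without the filter its fitted log2 fold change was 3.66 ± 0.57. Leaving out 4T1-Sca1+ replicate 3 gave 3.89, and leaving out each 4T1-Sca1- library in turn gave 3.33 (without replicate 4) to 4.21 (without replicate 3), so its size was imprecise. It lies within the span of Fntb on the opposite strand without shared exon bases.

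Among the 3 peroxidase transcripts, taken per exon length, Gpx1 held 93.5% ± 0.304 in 4T1-Sca1+ and 92.0% ± 0.195 in 4T1-Sca1- cells (SD, n = 4). Gpx4 held 6.46% ± 0.301 and 8.01% ± 0.196. The ratio of Gpx4 to Gpx1 was 0.0691 ± 0.00345 and 0.0870 ± 0.00232, with no overlap between the fractions. Gpx2 held 0.0642% ± 0.0290 and 0.00440% ± 0.00382.

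Acsl4 (ENSMUSG00000031278, chromosome X, 142317993 to 142390535, minus strand), the ligase that supplies polyunsaturated lipids to the peroxidation reaction, was higher in 4T1-Sca1+ cells. Its normalized counts were 3988, 3941, 3418 and 3762 against 2627, 2117, 2145 and 2414. The fractions did not overlap, although both were spread more widely than those of Gsr. Means were 3777 ± 258 and 2326 ± 241, with a log2 fold change of 0.71 ± 0.07 (1.64-fold). The ratio of Acsl4 to Gpx4 transcripts per length was 1.51 ± 0.170 in 4T1-Sca1+ and 0.732 ± 0.109 in 4T1-Sca1- cells, with no overlap. Which of the pair was the more abundant in 4T1-Sca1+ depended on the length used, since with the longest transcript the ratio was 0.892 ± 0.100 and 0.432 ± 0.0645.

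Levels of the 10 genes were also set on 1 scale, TPM from counts per kilobase of annotated exon. In 4T1-Sca1+ cells the order was Gpx1 (1712 ± 122), Gsr (314 ± 6.52), Slc3a2 (261 ± 6.32), Acsl4 (178 ± 13.2), Gpx4 (118 ± 9.10), Gclc (91.4 ± 5.77), Gclm (40.0 ± 1.28), Slc7a11 (32.0 ± 2.23), Gss (17.3 ± 0.736) and Gpx2 (1.15 ± 0.467), and no neighbours in that order overlapped in their library ranges. In 4T1-Sca1- cells it was Gpx1 (1657 ± 43.3), Slc3a2 (243 ± 6.07), Gsr (242 ± 4.43), Gpx4 (144 ± 5.12), Acsl4 (105 ± 12.0), Gclc (64.3 ± 4.20), Gclm (25.6 ± 2.27), Gss (17.1 ± 0.484), Slc7a11 (5.45 ± 0.113) and Gpx2 (0.0797 ± 0.0692), and there Slc3a2 and Gsr were not separated. Part of this order rested on the length used. With the longest annotated transcript in place of all exons, Gsr and Slc3a2 overlapped in 4T1-Sca1+ (244 ± 5.00 and 247 ± 5.93) and not in 4T1-Sca1- cells (187 ± 3.43 and 229 ± 5.62). Gpx4 (138 to 164 over the 4T1-Sca1+ libraries) then lay above Acsl4 (123 to 144) and Slc7a11 (32.8 to 38.6) above Gclm (32.3 to 34.5) in each library, although the ranges overlapped, and in 4T1-Sca1- cells Gpx4 overlapped Gsr and Gss overlapped Gclm. With either length Slc7a11 was below Gss in 4T1-Sca1- and above it in 4T1-Sca1+ cells, with separate ranges, and was the least abundant gene other than Gpx2 in 4T1-Sca1- cells.

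**Figure D3:**
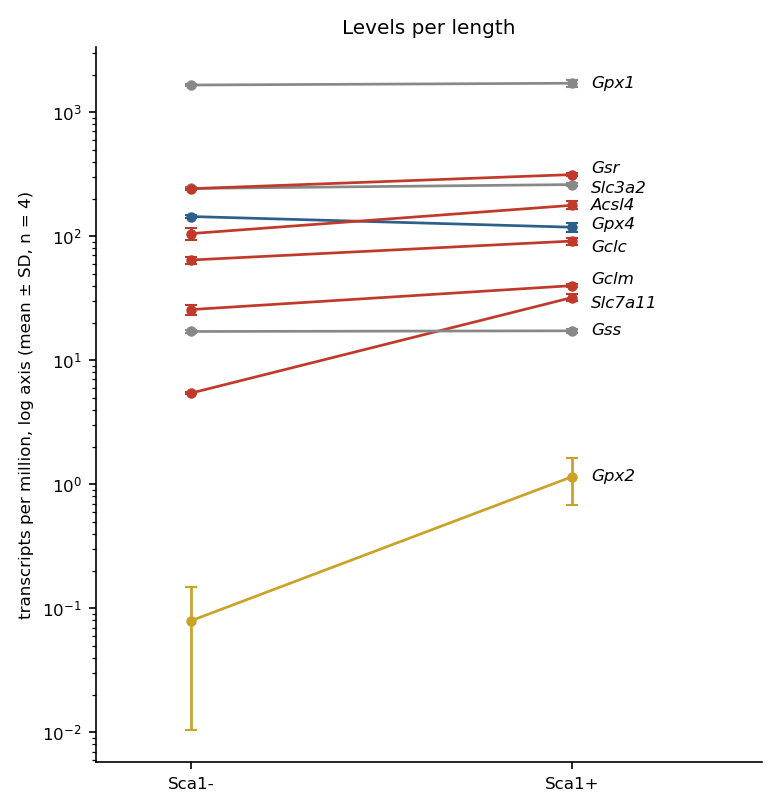
TPM (transcript level per exon length, vertical log axis, mean ± SD, n = 4) of the 10 genes in Sca1- (left) and Sca1+ (right) cells, with lines joining the 2 means of a gene (red called higher, blue called lower, grey not called, yellow not tested). Slc7a11 crosses Gss from 5.45 to 32.0, and Acsl4 crosses Gpx4 on this scale but not with the longest transcript as length.

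The genes around this pathway were taken in 8 lists of 126 genes, of which 120 were counted and 106 tested. Together 35 were higher and 37 lower in 4T1-Sca1+ and 34 were not called, with a median log2 fold change of -0.02, against 31.3% higher and 30.2% lower among all genes tested. Adjusted p-values below are from the same edgeR fit over all genes. These lists were also chosen with earlier results of these data known. Apart from genes fixed for their role, the genes named were picked as the highest or lowest in this same contrast. The adjusted p-values are therefore a description and give no independent support.

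Of the transport partners, the other light chains and the amino acid carriers, 6 of 11 were tested and 3 were higher (median log2 fold change 0.04). Slc1a4 (0.38 ± 0.06, adjusted p = 4.47e-05) and Slc1a5 (0.12 ± 0.04, adjusted p = 0.0175), carriers of neutral amino acids including glutamine for the latter, were higher, and Slc7a5, the light chain of the large neutral amino acid exchanger, was not called at -0.04 ± 0.04 (adjusted p = 0.438). Slc3a1, the heavy chain of another cystine carrier, was the remaining higher gene and is named after its value was seen, since its counts were below the mean of 20 set for naming. It had 77 reads against 33, and with at least 10 counts required in every library it dropped out, which left 5 tested and 2 higher (median -0.03). The GC-corrected fit gave 2 higher and 2 lower genes in this list, a median of -0.05 and a called Slc7a5 at -0.17, and put Slc1a5 at -0.02. Slc1a5 also lost its call without 4T1-Sca1+ replicate 1 (0.10), 4T1-Sca1- replicate 1 (0.10) or 4T1-Sca1- replicate 3 (0.12), and with no filter on low counts (0.11).

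Precursor supply leaned the other way, with 2 of 11 tested genes higher and 6 lower (median -0.20). Cth, which releases cysteine from cystathionine, was higher (0.41 ± 0.09, adjusted p = 0.00092), while Cbs, the step before it, had at most 5 reads in any library and was not tested. Gls2, a glutaminase that makes glutamate, was lower (-0.81 ± 0.10, adjusted p = 1.88e-06), as were Shmt2 (-0.43 ± 0.05, adjusted p = 2.16e-06) and Psat1 (-0.39 ± 0.05, adjusted p = 7.60e-06), of glycine and serine synthesis. Mat2a, which makes S-adenosylmethionine, was higher by 0.14 ± 0.05 (adjusted p = 0.0344) but lost its call without 4T1-Sca1+ replicate 1 (0.13) or 2 (0.10) and without 4T1-Sca1- replicate 1 (0.13), 2 (0.10) or 3 (0.14), which left 1 higher gene in the list. It also lost it under DESeq2 (0.12), by limma on the deposited table (0.12) and with a replicate block (0.14).

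For glutathione breakdown and transport, 10 of 16 genes were tested, with 3 higher and 3 lower (median -0.04). Lap3 (-0.59 ± 0.05, adjusted p = 2.26e-08) and Cndp2 (-0.59 ± 0.07, adjusted p = 6.26e-07), peptidases that split small peptides, were lower, and so was Abcc1, an exporter of glutathione and its conjugates (-0.24 ± 0.04, adjusted p = 0.000142). Oplah, which opens 5-oxoproline to glutamate, was higher at 0.69 ± 0.23 (adjusted p = 0.0161) with overlapping fractions. Chac1, an intracellular glutathione-degrading enzyme, was higher at 0.21 ± 0.08 (adjusted p = 0.0415), also with overlap. Both calls were fragile: Oplah lost its call without 4T1-Sca1+ replicate 2 (0.54), 4T1-Sca1- replicate 1 (0.57) or 4 (0.59), and Chac1 without 4T1-Sca1+ replicate 3 (0.14) or 4 (0.19) and without 4T1-Sca1- replicate 1 (0.18), 3 (0.18) or 4 (0.19), so that without 4T1-Sca1- replicate 1 or 4 the list held 1 higher gene. That gene, Ggt7, is named after its value was seen. It had 116 reads against 36, and it dropped out where at least 10 counts were required in every library, which left 9 tested and 2 higher. With GC correction 2 were higher and 4 lower, the median was 0.03, and Chac1 (0.05) and Oplah (0.50) were not called. Chac1 also lost its call under DESeq2 (0.19), with DESeq2 size factors in edgeR (0.20) and by limma on the deposited table (0.19). Ggt1, the gamma-glutamyltransferase of the cell surface, had at most 2 reads in any library.

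The other peroxidases and thiol systems were evenly divided, with 6 of 20 tested genes higher and 6 lower (median 0.01). Srxn1, sulfiredoxin, which restores overoxidised peroxiredoxins, was 1602 ± 69.3 against 768 ± 25.6 normalized counts (1.07 ± 0.05, adjusted p = 8.31e-12). Catalase (Cat, 0.45 ± 0.04, adjusted p = 9.43e-08), mitochondrial thioredoxin (Txn2, 0.30 ± 0.05, adjusted p = 2.44e-05) and thioredoxin reductase 1 (Txnrd1, 0.18 ± 0.04, adjusted p = 0.00178) were higher. Prdx5 (-0.56 ± 0.05, adjusted p = 1.48e-08), Gpx8 (-0.50 ± 0.06, adjusted p = 2.59e-06) and Glrx3 (-0.45 ± 0.07, adjusted p = 2.88e-05) were lower.

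Selenoprotein synthesis, on which GPX1, GPX2 and GPX4 depend, had 3 of 8 genes higher and 1 lower (median 0.10). Secisbp2l, a homologue of the factor that binds the selenocysteine insertion element (0.64 ± 0.05, adjusted p = 8.58e-09), Lrp8, a receptor for selenoprotein P (0.54 ± 0.04, adjusted p = 8.54e-09), and Scly, which frees selenium from selenocysteine (0.41 ± 0.07, adjusted p = 5.00e-05), were higher. Secisbp2, the binding factor itself, was lower by a small margin (-0.19 ± 0.06, adjusted p = 0.0195) and lost its call without 4T1-Sca1+ replicate 1 (-0.17) or 2 (-0.16) or 4T1-Sca1- replicate 3 (-0.16), and with scaling by library totals (-0.14), which left 3 higher and 0 lower.

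Ferroptosis defences outside GPX4 numbered 18 tested genes, 8 higher and 6 lower (median 0.17). Nqo1, a quinone reductase and a classic NRF2 target, was 809.5 ± 68.4 against 261 ± 13.5 normalized counts (1.65 ± 0.07, adjusted p = 3.72e-12). Aifm2, which encodes FSP1 and reduces ubiquinone at membranes, was higher by 0.24 ± 0.06 (adjusted p = 0.00225). Scd1, which makes monounsaturated fatty acids (0.66 ± 0.06, adjusted p = 3.61e-08), and Pla2g6, a phospholipase (0.59 ± 0.06, adjusted p = 1.49e-07), were also higher. Both subunits of the enzyme that makes the ubiquinone side chain, Pdss2 (-0.56 ± 0.08, adjusted p = 2.11e-05) and Pdss1 (-0.49 ± 0.06, adjusted p = 2.35e-06), were lower, as was the acyltransferase Mboat1 (-0.40 ± 0.06, adjusted p = 1.52e-05).

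Acsl4 belongs with the list of lipid peroxidation substrates and oxidases, of which 4 of 19 other tested genes were higher and 8 lower (median -0.07). The list is wider than its name. Its lower genes include Tfrc, Vdac3, Vdac2 (-0.36), Ncoa4 (-0.46) and Sat1 (-0.22), which are neither. Apart from these 5, Por, Fads1, Cyb5r1 and Gnpat (0.24) were higher, and Aloxe3, Elovl5 (-0.16) and Agps (-0.30) were lower. Vdac2, Ncoa4, Sat1, Gnpat, Elovl5 and Agps are named after their values were seen. Por, cytochrome P450 reductase (0.65 ± 0.05, adjusted p = 1.74e-09), the desaturase Fads1 (0.45 ± 0.05, adjusted p = 1.20e-06) and Cyb5r1 (0.27 ± 0.05, adjusted p = 0.000276) were higher. The lipoxygenase family gene Aloxe3 (39.0 ± 4.61 against 91.0 ± 12.4 normalized counts, log2 fold change -1.21 ± 0.15, adjusted p = 1.50e-06), the transferrin receptor Tfrc (-0.88 ± 0.08, adjusted p = 3.73e-08) and the mitochondrial channel Vdac3 (-0.49 ± 0.06, adjusted p = 1.06e-06) were lower.

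Regulators of the pathway divided into 6 higher and 7 lower among 14 tested (median -0.08). Nfe2l2, which encodes NRF2, was 2637 ± 160.2 against 1516 ± 53.3 normalized counts (0.81 ± 0.05, adjusted p = 5.10e-10). Its partner Mafg (0.49 ± 0.05, adjusted p = 6.14e-07), its inhibitor Keap1 (0.31 ± 0.04, adjusted p = 9.51e-06) and its competitor Bach1 (0.24 ± 0.06, adjusted p = 0.00191) were also higher, and Cul3, the ligase scaffold that works with KEAP1, was lower (-0.31 ± 0.06, adjusted p = 0.00028). The other MAF partners of NRF2, named after their values were seen, went both ways, Maff higher (0.29 ± 0.06) and Mafk lower (-0.27 ± 0.05). On the ATF4 side, Atf3 was 286 ± 9.82 against 1549 ± 128 normalized counts (-2.42 ± 0.07, adjusted p = 1.23e-14) and Ddit3, which encodes CHOP, was lower (-0.60 ± 0.10, adjusted p = 5.02e-05). Atf4 was lower by a small margin (-0.12 ± 0.04, adjusted p = 0.0169) and lost its call without 4T1-Sca1+ replicate 2 (-0.10) or 4T1-Sca1- replicate 3 (-0.11), and with scaling by library totals (-0.08) or the upper quartile (-0.09). Both NRF2 and ATF4 are known to activate Slc7a11, and their part in its difference was not tested. Protein levels and activity were not measured.

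**Figure D4:**
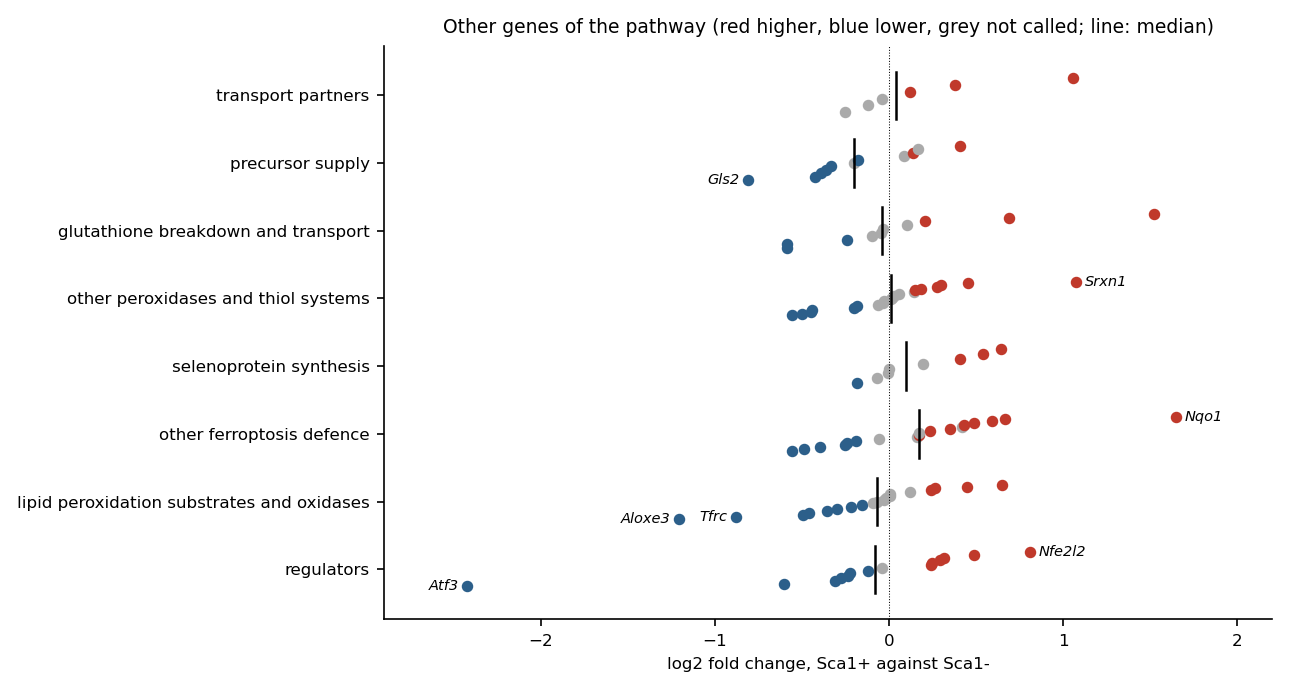
Log2 fold change of Sca1+ against Sca1- (horizontal axis) for the 106 tested genes of the 8 lists (rows; the vertical offset within a row only separates points), with the list's median as a black line. Points run both ways in every list, and the medians lie between -0.20 (precursor supply) and 0.17 (other ferroptosis defence).

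The genes whose log2 CPM had the highest correlation with Slc7a11 over the 8 libraries were Olfml2b (Pearson's r = 0.999, an extracellular matrix protein), Sqle (r = 0.998, squalene epoxidase of sterol synthesis) and Aox1 (r = 0.998, aldehyde oxidase). Because the fractions are separate, r here mostly restates the difference between them: 166 of 11708 genes had r above 0.99 and 1262 had r above 0.95. Olfml2b was 289 ± 9.86 against 55.8 ± 2.15 normalized counts, Sqle 2429 ± 36.9 against 1443 ± 28.3 and Aox1 739 ± 15.1 against 199 ± 5.01.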

How the data were processed

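RNA was sequenced from 4 4T1-Sca1+ and 4 4T1-Sca1- libraries (TruSeq kit, NextSeq instrument, per the labels). The submitters' processing notes name cutadapt 1.16, STAR 2.5.3a and the builds GRCm38 and mm10; the counting tool, annotation and use of strand are not given in the sources used here. The authors deposited raw counts per Ensembl gene and a table of normalized signal for 15372 genes, equal to the counts divided by DESeq2 size factors. The members and lists were chosen with earlier results of these data known.

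Counts were tested with edgeR 4.0.16 (R 4.3.3): filterByExpr (11717 tested, 4624 not), TMM, glmQLFit and glmQLFTest, two-sided, no covariate, Benjamini-Hochberg over tested genes, called under 0.05. The SE was the absolute log2 fold change divided by the square root of F. Positions and exon lengths came from GENCODE M21, in which 16202 genes matched and 139 did not, and may differ from the authors' annotation. The reads carried no molecular identifiers and may repeat 1 molecule, so intervals cover counting error only. All 10 members were named. From each list the 3 highest and the 3 lowest called genes with a mean of at least 20 normalized counts were named, plus genes fixed for their role. The alternatives were DESeq2 1.42.0, limma 3.58.1 (voom, and the deposited table with a pseudocount of 1), other scalings and filters, GC-corrected offsets, a replicate block, stricter thresholds, the longest transcript as length, and each library left out. Apart from that block, replicate numbers were not used to pair the libraries, and whether same-numbered libraries share a sort is not said.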

Additional observations from a re-analysis of the deposited data

How the results depend on the processing

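The log2 fold changes of Slc7a11, Gclc, Gclm, Gsr, Gpx4 and Acsl4 kept their sign under every alternative run, and lost their call only where a log2 change of 1 or more in size was required, which of the 10 genes kept Slc7a11. That threshold left 612 genes higher and 103 lower over all genes, 1 member higher and 0 lower, and 4 pathway genes higher and 2 lower. GC-corrected offsets called 2 members lower. With the longest annotated transcript as length, the Gpx1 share was 91.8% in 4T1-Sca1+ and 89.9% in 4T1-Sca1- cells and the Gpx4 share 8.17% and 10.1%. The sign turned for genes near 0. Gpx1 was -0.0095 under DESeq2, -0.0044 with DESeq2 size factors in edgeR, -0.15 with GC correction, -0.012 by limma on the deposited table, -0.010 with no filter, and -0.0062, -0.050, -0.026 and -0.0073 without 4T1-Sca1+ replicate 1 or 3 and 4T1-Sca1- replicate 1 or 4 (up to 0.037 when another library was left out). Gss was 0.0077 with GC correction, 0.018 with library totals and 0.0038 with upper-quartile scaling. Slc1a5 was -0.016 and Slc3a2 -9.3e-05 with GC correction, and Slc7a5 was 0.0022 with library totals. The cause was not tested.

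Leaving out each library in turn gave 3397 to 3642 genes higher and 3286 to 3548 lower, 5 to 6 members higher (the sixth being Gpx2, through its 4T1-Sca1+ reads) and 1 lower, and 30 to 35 pathway genes higher and 34 to 38 lower. Correlations between same-numbered libraries, as deviations from the group means, were 0.10, -0.15, -0.034 and -0.0011. A replicate block gave 3605 genes higher and 3452 lower, and 5 members higher and 1 lower. Over 55 single genes, 998 of 1099 comparisons kept direction and call, 84 lost the call (45 through the fold threshold), 2 gained one and 15 changed sign. No scaling moved the median of all genes by more than 0.043. Depth limits Gpx2, Cbs and Ggt1, which rest on few reads.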
